A study of Mus musculus with 18 samples.

Results

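Mammary glands of virgin RonTK+/+ mice were compared between 6 and 7 weeks of age, on 3 arrays at each age. These 6 arrays are those whose titles give the wild-type genotype and either age, and the whole series holds 18. RonTK+/+ mice carry an intact receptor Ron, and the other genotype of the series, RonTK-/-, lacks the tyrosine kinase domain of Ron. All animals were virgin females with no treatment, and total RNA came from whole glands, from which fat was spun off during extraction. The labels do not say whether the 3 arrays of a group came from separate animals, so p-values measure only the spread between these samples, which may be technical. All 18193 genes with a probe set of 1 symbol were tested. Values are log2 of the deposited ratios, where 0 stands for the median of the RonTK+/+ arrays in 87.37% of probe sets. A difference of 1 is thus a doubling from 6 to 7 weeks.

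During puberty the mammary ducts grow into the fat pad from terminal end buds, driven by ovarian oestrogen, growth hormone and IGF-1. Once ovarian cycles begin, progesterone acts on hormone-sensing luminal cells, which release paracrine factors such as Wnt4 and RANKL (Tnfsf11) that make neighbouring epithelial cells divide and side branches form. Ducts consist of an inner luminal layer, sealed by tight junctions, and an outer basal layer of contractile myoepithelium.

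The 6 arrays differed in tissue make-up within each age. Averaged over 22 skeletal muscle genes, the log2 ratio was 0.75, -5.14 and -3.63 in arrays 1, 2 and 3 at 6 weeks, and 0.59, -5.26 and 0.30 at 7 weeks. That of 15 B lymphocyte genes was -1.73, 0.57 and 0.08 against -1.77, 0.10 and -1.75. Muscle was therefore high and B cell transcripts low in array 1 at 6 weeks and in arrays 1 and 3 at 7 weeks. The epidermis and hair list averaged 1.46 in array 1 at 6 weeks and -0.12 to 0.04 in the other 5 arrays. In such bulk RNA, fewer cells of a type and less RNA per cell cannot be told apart. The ratios hold no absolute level, so whether a marker is present or at background could not be read from them.

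Of the 18193 genes, 2 passed the threshold of the limma test at an adjusted p under 0.05 (0.011%), and both rose. They were Zfp692, which encodes a zinc finger transcription factor, and Sik1, a salt-inducible kinase of the AMPK family. Zfp692 stood at -0.14, -0.13 and -0.11 at 6 weeks and at 0.425, 0.27 and 0.31 at 7 weeks. Sik1 stood at -0.16, -0.33 and -0.29 against 0.36, 0.33 and 0.37. In both genes every 7-week array lay above every 6-week array, as in 5.47% of all genes. Zfp692 rose 1.38-fold (log2 difference 0.46 ± 0.06 SE, adjusted p = 0.0246), and Sik1 rose 1.53-fold (0.61 ± 0.09, adjusted p = 0.0484). No gene fell past the threshold. At an unadjusted p under 0.05 there were 1664 genes (9.15%), of which 986 were higher at 7 weeks (5.42%) and 678 lower (3.73%). At an adjusted p under 0.1 there were 32 genes (0.176%), 31 of them higher. Of the 100 genes with the smallest p, 91 were higher at 7 weeks, although the median difference over all genes was -0.01. The count of called genes depended on single arrays: 512 genes passed without array 3 at 7 weeks, 41 without array 1 at 6 weeks, 2 without array 2 at 7 weeks, of which 1 was Zfp692, and 0 without any of the other 3. Both calls also ended with quantile normalization (smallest adjusted p 0.0916), with only the 9 RonTK+/+ arrays in the fit (0.339) and with only the 6 arrays compared (0.882). On the RonTK-/- arrays the differences were 0.25 for Zfp692 and 0.33 for Sik1, and neither difference between genotypes passed the test (adjusted p = 0.624 for each).

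**Figure D1:**
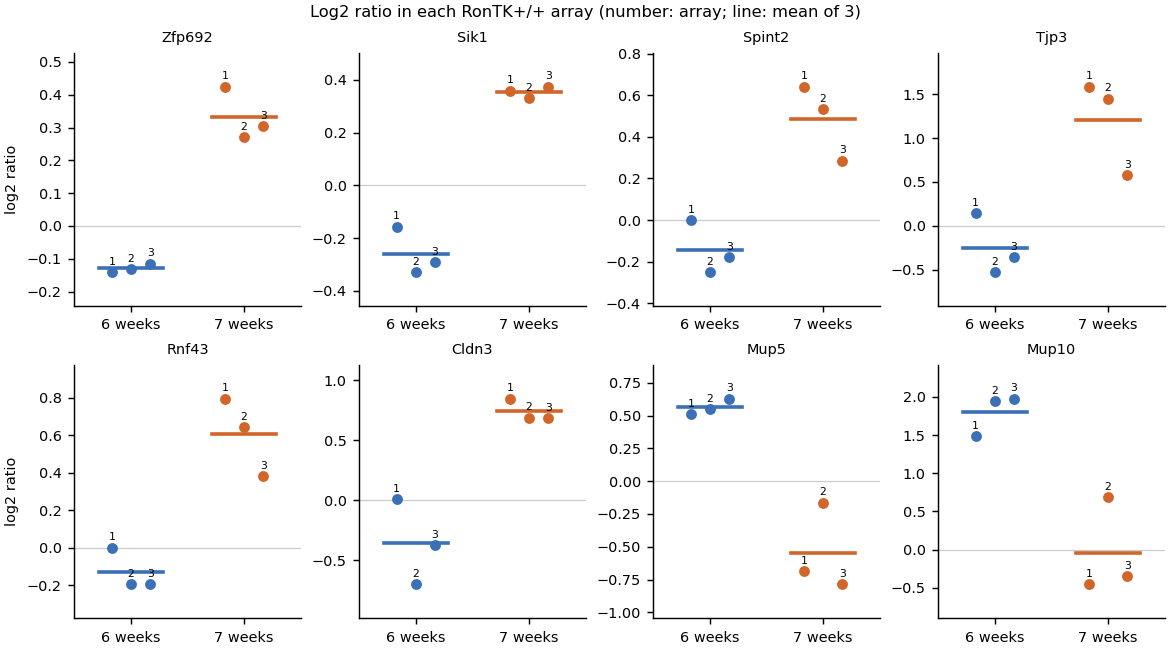
Log2 ratio (y axis) of 8 genes in each RonTK+/+ array at 6 weeks (blue) and 7 weeks (orange), where digits give the array number and lines the mean of 3. Zfp692 and Sik1 are the 2 genes that passed the test. In all 8 panels the 2 ages do not overlap, with Mup5 and Mup10 lower at 7 weeks. For Spint2, Tjp3, Rnf43, Mup5 and Mup10 that was a condition for naming them.

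The window around the start of Zfp692, the gene with the smallest p, is shown because it is a called gene (GRCm38.p6, chr11:58306819-58307118, plus strand, 250 bases before to 50 after the start). The promoter windows used here hold none for Sik1, the other called gene. Capitals in all windows mark matches on either strand to the CHR element TTTGAA, the CCAAT box CCAAT, the GC box GGGCGG and the cAMP response element half-site TGACG. None of these motifs overlaps another in the windows shown.
Zfp692: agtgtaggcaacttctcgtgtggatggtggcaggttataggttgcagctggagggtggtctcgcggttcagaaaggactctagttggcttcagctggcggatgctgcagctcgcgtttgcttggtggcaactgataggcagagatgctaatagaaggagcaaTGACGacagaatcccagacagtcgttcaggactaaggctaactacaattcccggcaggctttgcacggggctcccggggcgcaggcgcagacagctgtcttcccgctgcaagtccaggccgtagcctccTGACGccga
Both TGACG matches of Zfp692 lie on the strand shown, at -88 and 42 from the start. TGACG was found on either strand in 21.0% of the windows of all 27025 genes with one.

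Next in rank came genes that did not pass, led by Spint2, Rnf43 and Tjp3. All had an adjusted p of 0.0502, just above the threshold, as did Zfp184, Dtx4, Shmt1, Krtcap3, Lratd2, Apof and Fads2. Spint2, which encodes a membrane-anchored inhibitor of serine proteases such as matriptase and the HGF activator, stood at 0, -0.25 and -0.18 at 6 weeks and at 0.64, 0.53 and 0.29 at 7 weeks (difference 0.63 ± 0.09). Tjp3, the tight junction scaffold ZO-3, stood at 0.14, -0.53 and -0.36 against 1.59, 1.45 and 0.58 (1.45 ± 0.23, a 2.74-fold higher level). Rnf43 encodes a ubiquitin ligase that removes Wnt receptors from the cell surface, and it differed by 0.74 ± 0.12. In these 3 genes no array of one age reached the range of the other, which was a condition for naming them. Of all genes 5.47% lay apart in this direction. Apof, an apolipoprotein gene, differed by 1.15 ± 0.19, Fads2, a fatty acid desaturase, by 0.70 ± 0.12, and Shmt1, the cytosolic serine hydroxymethyltransferase, by 0.57 ± 0.09. Zfp184 differed by 0.62, Lratd2 by 0.54, and Dtx4, of the Deltex family of Notch regulators, and Krtcap3 by 0.44 each. When genes with a probe set at the lowest ratio of the table were left out, these 10 genes and Mup5 came to an adjusted p of 0.0496, and the cause was not tested.

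On the lower side, among genes with ages apart and leaving out predicted and RIKEN genes, the smallest p belonged to major urinary protein genes. Their products carry pheromones. Mup5 stood at 0.51, 0.55 and 0.63 at 6 weeks and at -0.69, -0.16 and -0.79 at 7 weeks (difference -1.11 ± 0.18, adjusted p = 0.0502). Mup10 stood at 1.48, 1.94 and 1.98 against -0.45, 0.69 and -0.35 (-1.84 ± 0.39, adjusted p = 0.135). The groups lie apart in both, which was a condition for naming them, and 6.28% of all genes lay apart in this direction. The family holds near-identical copies that share sequence, so which copy was measured is uncertain. Cacna2d3, an auxiliary subunit of calcium channels, differed by -0.99 ± 0.22 (adjusted p = 0.150). The other 7 genes named on this side by the same rule differed by less, from -0.19 in Ngb (neuroglobin) and Ccdc175 to -0.34 in Cox15, a gene of heme A synthesis. Rimkla, Trim40, Afm (afamin) and Olfr480 lay between -0.29 and -0.21. The adjusted p of these 7 genes ran from 0.150 to 0.208.

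Luminal epithelial genes were higher together at 7 weeks, without any member passing the test. This list and those below were chosen with earlier results of these data known, so their counts are no independent evidence of a direction. All 21 measured genes of the list had a difference above 0, against 45.6% of all genes, with a median of 0.53 and a range from 0.14 to 1.31. At an unadjusted p under 0.05 there were 13 of them, all higher at 7 weeks, against 5.42% of all genes. In 13 the 3 arrays at 7 weeks lay above the 3 at 6 weeks, which 5.47% of all genes did. The list mean was 0.19, -0.61 and -0.16 at 6 weeks and 0.46, 0.42 and 0.52 at 7 weeks. The 7-week arrays lay close together, while the 6-week arrays were spread out, with the highest luminal mean in the muscle-rich array 1. Of the 6 arrays, 2 at 6 weeks and 1 at 7 weeks were low in muscle. With the muscle mean as a covariate the median of the luminal epithelium list was 0.48. Leaving out each of the 6 arrays in turn gave medians from 0.41 to 0.73, and from 7 (without array 2 at 6 weeks) to 13 genes at an unadjusted p under 0.05. Over the same fits 929 to 3159 of all genes reached that p, in either direction, with 1399 without array 2 at 6 weeks. At 5 weeks the list mean was -0.03, -0.71 and -0.02, beside muscle means of 0.01, -5.35 and 0.30.

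Cldn3, a claudin of epithelial tight junctions, had the smallest p of the list after Spint2. It stood at 0.01, -0.70 and -0.37 at 6 weeks and at 0.85, 0.69 and 0.69 at 7 weeks (difference 1.09 ± 0.20, adjusted p = 0.0826), and all 4 of its probe sets were higher. The splicing regulator Esrp1 stood at 0.21, -0.88 and -0.52 against 1.15, 1.09 and 0.49 (1.31 ± 0.35). The ETS factor Ehf reached 1.53 and 1.44 in arrays 1 and 2 at 7 weeks and 0.21 in array 3, against -0.43 to 0.05 at 6 weeks. In Cldn3, Esrp1 and Ehf every 7-week array lay above the 6-week arrays, and their adjusted p ran up to 0.259. Cldn7 differed by 1.25 ± 0.36 and the adherens junction protein E-cadherin (Cdh1) by 1.12 ± 0.33, the latter with array 1 at 6 weeks just above array 3 at 7 weeks. Elf5, the alveolar cell fate factor, stood at 0.45, -0.67 and -0.14 against 1.03, 0.68 and 0.42, with an overlap (0.83 ± 0.30, adjusted p = 0.376). Elf3 was lowest of the list at 0.14 ± 0.10.

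**Figure D2:**
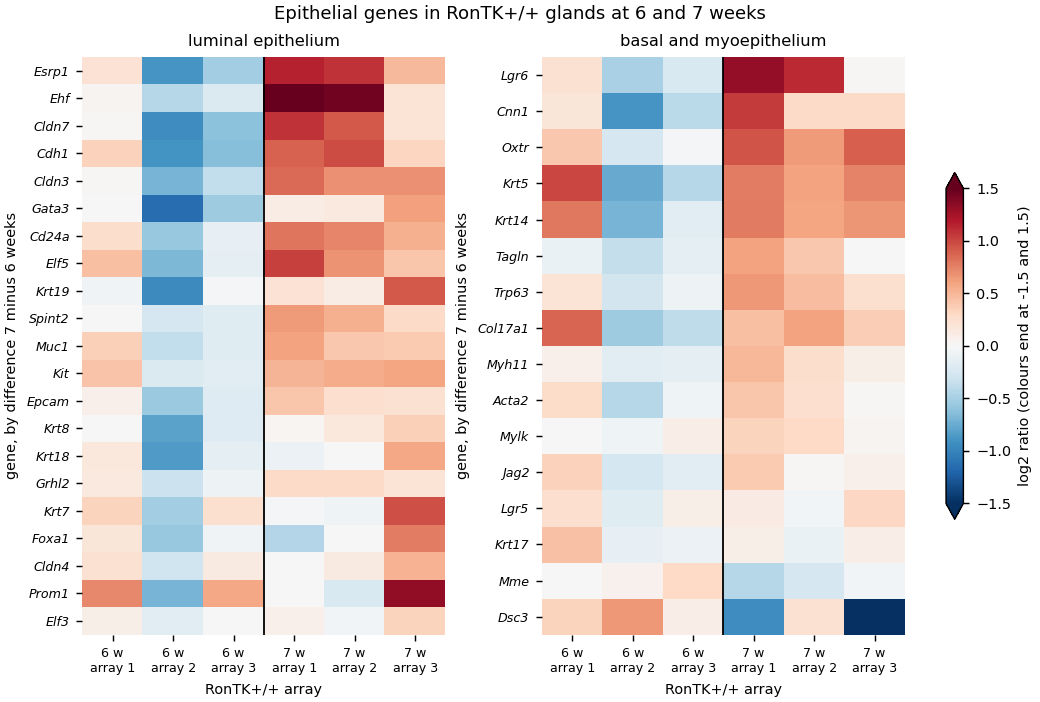
Log2 ratio of the 21 luminal (left) and 16 basal genes (right) in each RonTK+/+ array, with genes ordered by the difference 7 minus 6 weeks and colours ending at -1.5 and 1.5. Array 2 at 6 weeks is blue in every luminal row, and the top rows are darkest red in arrays 1 and 2 at 7 weeks.

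The windows of Spint2 (chr7:29281928-29282227, minus strand) and Cldn3 (chr5:134985964-134986263, plus strand) are shown as the luminal pair with the smallest p, from the same table and build.
Spint2: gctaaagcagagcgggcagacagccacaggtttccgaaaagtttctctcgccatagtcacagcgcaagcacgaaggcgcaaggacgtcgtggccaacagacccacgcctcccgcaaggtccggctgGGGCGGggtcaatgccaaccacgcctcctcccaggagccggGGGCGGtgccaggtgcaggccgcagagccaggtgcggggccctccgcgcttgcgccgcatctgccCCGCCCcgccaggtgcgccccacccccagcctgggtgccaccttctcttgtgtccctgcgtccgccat
Cldn3: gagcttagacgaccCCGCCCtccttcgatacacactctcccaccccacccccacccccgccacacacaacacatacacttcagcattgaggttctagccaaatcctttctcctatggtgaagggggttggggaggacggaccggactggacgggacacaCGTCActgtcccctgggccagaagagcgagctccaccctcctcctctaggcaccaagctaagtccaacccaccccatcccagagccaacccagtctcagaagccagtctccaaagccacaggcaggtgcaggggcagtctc
Spint2 holds 3 matches to the GC box, at -124, -83 and -18 from the start, the last on the opposite strand. Cldn3 holds 1 GC box match at -236 and 1 TGACG match at -91, both on the opposite strand. A GC box was found in 10 of the 15 luminal windows in the table (66.7%), against 35.9% of all 27025, and the shares in the tight junction (67.5%), mitosis (76.0%) and S phase (77.3%) lists were higher. TGACG was found in 1 luminal window (6.67%).

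Genes of tight junctions and cell polarity were drawn up as a list after Tjp3 and Cldn3 had been seen among the leading genes, so the list is no independent evidence of a direction. Of its 50 measured genes 36 had a difference above 0, with a median of 0.19. At an unadjusted p under 0.05 there were 22 higher and 0 lower, against 5.42% and 3.73% of all genes. None passed after adjustment. In 19 genes the 7-week arrays all lay above the 6-week arrays, and in 2 all lay below, against 5.47% and 6.28% of all genes. The list mean was 0.04, -0.18 and -0.06 at 6 weeks and 0.28, 0.26 and 0.18 at 7 weeks. Ildr1, an angulin of tricellular junctions, stood at 0.06, -0.11 and 0 against 0.35, 0.42 and 0.39 (0.40 ± 0.07, adjusted p = 0.0548). The polarity scaffold Dlg3 stood at 0.11, -0.23 and 0 against 0.54, 0.50 and 0.48 (0.55 ± 0.10, adjusted p = 0.0580). Both were steady across the 7-week arrays. Marveld2, the tricellular junction protein tricellulin, differed by 1.12 ± 0.23, Magi1 by 0.26 ± 0.05 and Cldn8, highest of the list, by 1.65 ± 0.56, all with ages apart. Pard6b, a polarity protein named here after its values were seen, stood at 0.07, -0.35 and -0.17 at 6 weeks and at 1.83, 1.47 and 0.22 at 7 weeks. Its higher level was thus mainly in arrays 1 and 2. Cldn11, a claudin of other tissues, was lowest of the list at -0.31 ± 0.29.

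Basal and myoepithelial genes had a median difference of 0.42, with 13 of 16 above 0. At an unadjusted p under 0.05 there were 7 higher and 1 lower, against 5.42% and 3.73% of all genes. None passed after adjustment. The list mean was 0.33, -0.30 and -0.11 at 6 weeks and 0.44, 0.34 and 0.15 at 7 weeks, so array 1 at 6 weeks lay within the 7-week range. The basal median was 0.27, with 3 genes higher at an unadjusted p under 0.05, without array 2 at 6 weeks. It was 0.33 with 2 without array 1 at 7 weeks, and 0.53 with 11 without array 1 at 6 weeks. In these fits, in that order, 1399, 929 and 2035 of all genes reached that p, in either direction. The oxytocin receptor gene Oxtr, which mediates milk ejection, stood at 0.41, -0.25 and -0.02 against 0.94, 0.64 and 0.90 (0.78 ± 0.23, adjusted p = 0.296). The contractile genes Tagln (0.54 ± 0.16), Myh11 (0.36 ± 0.12) and Cnn1 (0.91 ± 0.33) and the basal transcription factor gene Trp63 (0.50 ± 0.19) also had their ages apart. Lgr6, a receptor for R-spondins, was highest at 0.98 ± 0.35, with 1.32 and 1.12 in arrays 1 and 2 at 7 weeks and 0.02 in array 3. The lowest member, the desmosomal cadherin Dsc3, stood at 0.34, 0.65 and 0.10 against -0.93, 0.23 and -1.49 (-1.09 ± 0.48), with an overlap.

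Of the 9 measured genes of the Ron and Met family 4 had a difference above 0 and 5 below, with a median of -0.02, which turned to between 0.02 and 0.16 without array 1 or 2 at 6 weeks or any one of the arrays at 7 weeks. Mst1r, which encodes Ron, stood at 0.22, 0 and 0.17 at 6 weeks and at -0.31, -0.22 and 0.49 at 7 weeks (-0.14 ± 0.23, adjusted p = 0.861). Its ligand gene Mst1 differed by -0.04 ± 0.09 and Met by 0.17 ± 0.16, and the ages overlapped in all 3. St14, the serine protease matriptase, stood at 0.04, -0.88 and -0.40 against 0.78, 0.38 and 0.41 (0.94 ± 0.27, adjusted p = 0.292). Spint1, a second matriptase inhibitor, stood at 0, -0.33 and -0.24 against 0.16, 0.09 and 0.11 (0.31 ± 0.12, adjusted p = 0.440). St14, Spint1 and Spint2 were the 3 of 9 members with all 7-week arrays above, against 5.47% of all genes, and none passed the test. Spint2 is also a member of the luminal list. Hgfac, the HGF activator, differed by -0.15 ± 0.09, with the 7-week arrays all below. Tmprss2, another serine protease, was lowest at -0.17 ± 0.44, and its sign changed when single arrays were left out.

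Hormone receptors themselves showed no called difference. Esr1 stood at 0.12, -0.10 and 0.12 against -0.17, -0.10 and -0.01 (-0.14 ± 0.16, adjusted p = 0.807). Pgr stood at 0.01, -0.42 and 1.13 against 0.35, -0.01 and 0.62 (0.08 ± 0.47), and its sign changed with the scaling, as quantile normalization gave -0.26. Prlr and Areg were not analysed here. Of the 12 measured genes of the list 9 were above 0, with a median of 0.19. Of these genes 3 had an unadjusted p under 0.05, all higher and with ages apart: Rspo1, Wnt4 and Cited1. Among all genes 5.42% were higher at that p, and 5.47% had all 7-week arrays above the 6-week arrays. The median of this list was 0.01 without array 2 at 6 weeks, 0.02 without array 3 at 7 weeks and 0.36 without array 1 at 6 weeks. Cited1, a transcriptional co-regulator of oestrogen receptor, stood at 0, -0.77 and -0.76 against 0.01, 0.24 and 0.73 (0.83 ± 0.28, adjusted p = 0.349). Ccnd1, cyclin D1, reached 0.61 and 0.74 in arrays 1 and 2 at 7 weeks and -0.57 in array 3, against -0.14 to 0 at 6 weeks. Greb1 was lowest at -0.43 ± 0.46, and without array 3 at 6 weeks, which stood at 1.42, the difference was 0.06.

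Genes of paracrine factors were not alike across the 7-week arrays. Rspo1, an R-spondin that strengthens Wnt signals, stood at -0.18, -0.11 and -0.10 at 6 weeks and at 3.94, 3.55 and 0.16 at 7 weeks (2.67 ± 0.69, adjusted p = 0.208). Tnfsf11, which encodes RANKL, stood at -1.17, 0.80 and -0.01 against 3.17, 3.21 and -1.23 (1.84 ± 0.91, adjusted p = 0.574). Wnt4 stood at 0.20, -0.77 and -0.30 against 1.35, 0.65 and 0.66 (1.17 ± 0.31, adjusted p = 0.211). Rspo1 and Tnfsf11 were high in arrays 1 and 2 at 7 weeks only among these 6 arrays. In array 3 at 7 weeks Tnfsf11 lay close to the lowest 6-week array (-1.23 against -1.17). Wnt4 was higher in all 3 arrays at 7 weeks. Igfbp2, an IGF-binding protein named here after its values were seen, had 1.56 and 1.47 in arrays 1 and 2 at 7 weeks and -0.21 in array 3, against -0.13 to 0 at 6 weeks. Those 2 arrays differ in muscle (0.59 and -5.26) and B cell transcripts (-1.77 and 0.10).

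**Figure D3:**
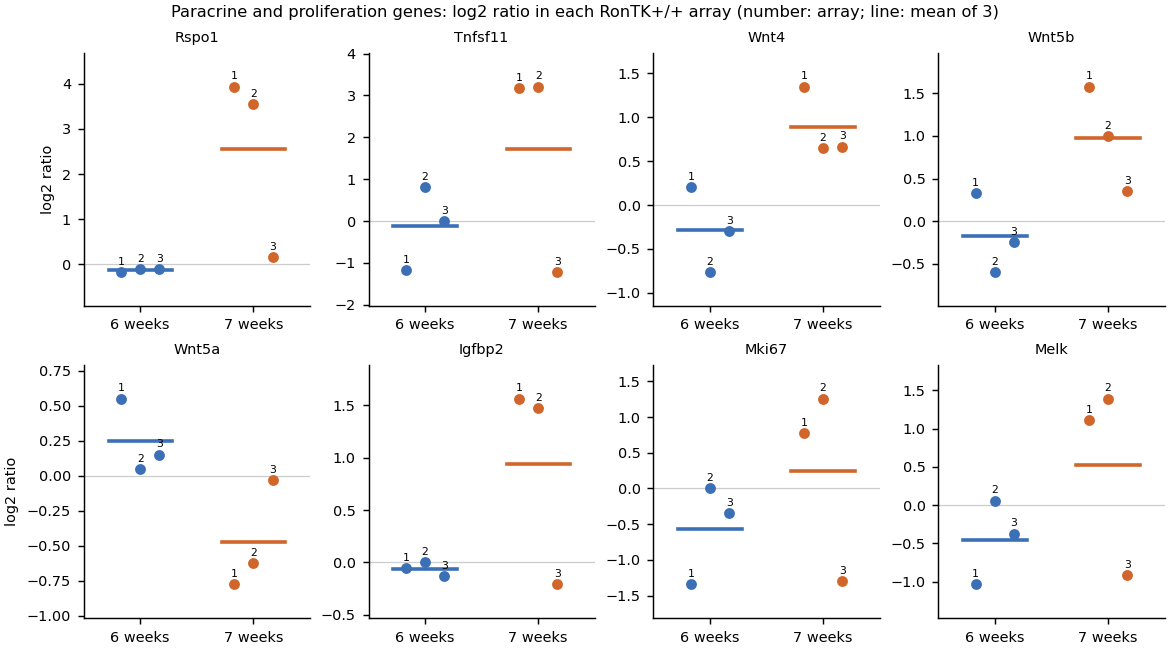
Log2 ratio (y axis) of 6 paracrine genes and 2 proliferation genes in each RonTK+/+ array at 6 weeks (blue) and 7 weeks (orange), with array numbers as digits and lines at the mean of 3. Arrays 1 and 2 at 7 weeks stand high for Rspo1, Tnfsf11, Igfbp2, Mki67 and Melk, and array 3 at 7 weeks lies with or below the 6-week arrays for Tnfsf11, Igfbp2, Mki67 and Melk.

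In the Wnt list as a whole 5 genes were higher and 2 lower at an unadjusted p under 0.05, against 5.42% and 3.73% of all genes. Of its 28 genes 16 were above 0, with a median of 0.05. That median ran from 0.02, without array 2 at 6 weeks or array 1 at 7 weeks, to 0.13 without array 1 at 6 weeks. Wnt5b stood at 0.33, -0.60 and -0.25 against 1.58, 1.00 and 0.35 (1.15 ± 0.27, adjusted p = 0.198). Wnt5a, a non-canonical ligand, stood at 0.55, 0.05 and 0.15 against -0.78, -0.62 and -0.03 (-0.73 ± 0.21, adjusted p = 0.294). The 2 ligands thus lay apart in opposite directions. Tcf7l2, a transcription factor of the pathway, differed by 0.39 ± 0.15 and the secreted protein Dkk3 by 0.45 ± 0.19, both with an overlap. Lef1, which T lymphocytes also express, was lowest at -1.28 ± 1.05 and followed the lymphocyte lists, with -2.31 in array 1 at 6 weeks and -2.79 and -2.66 in arrays 1 and 3 at 7 weeks.

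Of 14 EGF family genes, 1 was higher and 1 lower at an unadjusted p under 0.05, against 5.42% and 3.73% of all genes. The receptor gene Erbb2 stood at 0, -0.39 and -0.17 against 0.42, 0.13 and 0.40 (0.50 ± 0.15, adjusted p = 0.296), with ages apart. The ligand gene Nrg4 stood at 0.01, 0.42 and 0.37 against -0.75, -0.55 and 0.12 (-0.65 ± 0.28), with an overlap. Tgfa differed by -0.12 ± 0.06, with the 7-week arrays below. Egf was highest at 0.56 ± 0.99 and followed the muscle genes, with -2.10, -2.01 and -2.40 in the 3 muscle-low arrays and 0.32 to 0.70 in the others. In the Notch and Hedgehog list 9 of 19 genes had a difference above 0 and 10 below, with a median of -0.04, which came to 0.06 without array 1 at 6 weeks or array 2 at 7 weeks and to 0.01 without array 2 at 6 weeks. At an unadjusted p under 0.05 there were 3 higher (5.42% of all genes) and 0 lower (3.73%): the Notch ligand Dll1 (0.44 ± 0.14), the Notch target Hes1 (0.42 ± 0.15) and the Hedgehog transducer Smo (0.25 ± 0.10). All 3 had their ages apart and adjusted p values from 0.326 to 0.427. Hey1 was lowest at -0.42 ± 0.28, with -0.53 and -0.49 in arrays 1 and 2 at 7 weeks and 0.81 in array 3.

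Milk genes were mixed. Of 19 measured, 12 were above 0, with a median of 0.21. An unadjusted p under 0.05 was reached by 3, all higher, against 5.42% of all genes. The median was 0.08 without array 2 at 6 weeks, 0.11 without array 1 at 7 weeks and 0.38 without array 1 at 6 weeks. Wfdc18 stood at -0.18, -1.18 and -0.80 against 1.49, 1.35 and 0.09 (1.69 ± 0.53, adjusted p = 0.319). The mucin gene Muc15 stood at 0.37, -1.34 and -0.81 against 1.48, 1.34 and 0.56 (1.73 ± 0.56, adjusted p = 0.326). Both had their ages apart. Csn2, beta-casein, was highest at 2.12 ± 1.51, but its 6-week arrays ran from -3.85 to 0.48 and overlapped the 7-week range. Lalba, alpha-lactalbumin, stood at 1.98, -0.30 and 0.80 against -1.36, -1.24 and 0.92 (-1.39 ± 0.65), so it was low in the same 2 arrays in which Rspo1 was high.

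Proliferation genes split the 7-week arrays. All 29 measured genes of G2 and mitosis had a difference above 0, against 45.6% of all genes, with a median of 0.50. Of them 0 reached an unadjusted p under 0.05, against 9.15% of all genes. In 0 were the ages apart, against 5.47% of all genes upward and 6.28% downward. The list mean was -0.65, 0.03 and -0.19 at 6 weeks and 0.51, 0.82 and -0.68 at 7 weeks. Arrays 1 and 2 at 7 weeks were the highest and array 3 the lowest of the 6. The 27 S phase genes were likewise all above 0, with a median of 0.30. An unadjusted p under 0.05 was reached by 2 of them, against 5.42% of all genes that were higher at that level. The S phase list mean was -0.47, 0.07 and -0.06 against 0.50, 0.70 and -0.57. Without array 3 at 7 weeks the medians were 0.99 and 0.77, and 28 and 26 genes reached an unadjusted p under 0.05. In that fit 3159 of all 18193 genes did so, in either direction, and the array left out is the lowest for both lists. Without array 2 at 7 weeks the medians were 0.18 and 0.06, with 0 genes in either list at that p. Without array 1 at 7 weeks they were 0.33 and 0.18, also with 0, and without array 1 at 6 weeks 0.27 and 0.16. Of all genes 1555 reached that p without array 2 at 7 weeks and 929 without array 1 at 7 weeks. Without array 2 at 6 weeks the S phase median was 0.48.

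Mki67, the proliferation antigen Ki-67, stood at -1.34, 0 and -0.34 at 6 weeks and at 0.77, 1.26 and -1.30 at 7 weeks (0.81 ± 0.57, adjusted p = 0.716). Melk, a mitotic kinase and the highest of its list, stood at -1.04, 0.06 and -0.37 against 1.11, 1.39 and -0.91 (0.98 ± 0.54). The spindle checkpoint kinase Ttk stood at -0.38, 0 and -0.09 against 0.70, 1.00 and -0.43 (0.58 ± 0.31). The same arrays were high and low in all 3 genes. Of the other mitotic genes, the kinetochore protein Cenpf differed by 0.51 ± 0.28, the spindle motor Kif11 by 0.58 ± 0.34, Nusap1 by 0.50 ± 0.30, Nek2 by 0.22 ± 0.12 and Aurka, lowest of the list, by 0.22 ± 0.20. In S phase the clamp loader genes Rfc3 (0.61 ± 0.21, adjusted p = 0.361) and Rfc4 (0.52 ± 0.20, adjusted p = 0.439) had the smallest p. Gins1, Tyms and the primase gene Prim1 differed by 0.34, 0.17 and 0.67. Cyclin E2 (Ccne2), with 1.30 and 1.27 in arrays 1 and 2 at 7 weeks and -0.15 in array 3, was highest at 0.77 ± 0.41, and cyclin E1 (Ccne1) lowest at 0.02 ± 0.13.

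Ttk (chr9:83834439-83834738, plus strand) and Cenpf (chr1:189688037-189688336, minus strand) are shown because their list varied together across the 6 arrays and they have the smallest p in it.
Ttk: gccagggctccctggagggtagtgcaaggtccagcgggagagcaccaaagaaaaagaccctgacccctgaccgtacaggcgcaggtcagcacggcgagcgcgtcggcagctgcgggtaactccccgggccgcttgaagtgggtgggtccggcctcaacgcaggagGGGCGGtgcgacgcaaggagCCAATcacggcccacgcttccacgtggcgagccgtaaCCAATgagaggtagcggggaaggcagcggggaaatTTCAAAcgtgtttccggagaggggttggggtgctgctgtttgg
Cenpf: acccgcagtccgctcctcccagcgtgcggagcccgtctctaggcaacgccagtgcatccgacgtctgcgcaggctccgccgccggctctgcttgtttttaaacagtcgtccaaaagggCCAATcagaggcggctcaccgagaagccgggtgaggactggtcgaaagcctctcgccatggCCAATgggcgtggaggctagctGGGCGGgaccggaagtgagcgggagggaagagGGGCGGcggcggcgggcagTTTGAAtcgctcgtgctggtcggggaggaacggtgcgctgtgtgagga
Each holds 1 CHR match, at 8 from the start in Ttk on the opposite strand and at 3 in Cenpf, and 2 CCAAT boxes upstream, at -65 and -28 in Ttk and at -132 and -71 in Cenpf. CHR and CCAAT boxes are known from cell cycle promoters. Among the 25 mitosis genes with a window 18 held a CHR match (72.0%), against 18.1% of all 27025 windows, and 15 held both motifs (60.0%), against 7.12%. Among 22 S phase windows 2 held a CHR match (9.09%) and 14 a CCAAT box (63.6%, against 37.9% of all).

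Heat shock genes were mostly higher at 7 weeks. Of 20 genes 17 were above 0, with a median of 0.15. At an unadjusted p under 0.05 there were 6 higher and 1 lower, against 5.42% and 3.73% of all genes. The constitutive chaperone Hspa8 stood at -0.09, -0.11 and -0.10 against 0.57, 0.42 and 0.32 (0.54 ± 0.13, adjusted p = 0.208). Hsph1 stood at 0, -0.71 and -0.44 against 0.95, 0.34 and 0.55 (1.00 ± 0.30). Hspe1, Hsp90aa1, Dnajb1 and Hspd1 differed by 0.17 to 0.35, and Dnajb9, a chaperone of the endoplasmic reticulum, by -0.21 ± 0.08. All 7 had their ages apart, as had 5.47% of all genes upward and 6.28% downward. For Hsp90aa1 the probe set with the smallest p differed by -0.22, while 4 of its 5 probe sets were above 0, up to 0.60. The stress-induced Hspa1a was highest at 1.09 ± 0.61, with an overlap.

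White adipocyte genes lay on the other side. All 12 measured genes had a difference below 0, against 54.4% of all genes, with a median of -0.35. An unadjusted p under 0.05 was reached by 2 of them, against 3.73% of all genes that were lower at that level. The list mean was -0.14, 0.18 and 0.34 at 6 weeks and -0.59, -0.21 and 0.11 at 7 weeks, so the ages overlapped. The adipocyte median was -0.19 without array 1 at 7 weeks, with 0 genes at an unadjusted p under 0.05, and -0.59 without array 3, with 7. Of all genes 929 and 3159 reached that p in these fits, in either direction. Without array 2 or 3 at 6 weeks 0 genes of the list reached that level, against 1399 and 1257 of all genes. Lipoprotein lipase (Lpl) stood at -0.01, 0.22 and 0.18 against -0.27, -0.05 and -0.05 (-0.25 ± 0.10, adjusted p = 0.459). It was the member in which all 7-week arrays lay below, which 6.28% of all genes did. The fatty acid carrier Fabp4 and resistin (Retn) each differed by -0.45, hormone-sensitive lipase (Lipe) by -0.34, Cebpa by -0.46 and adiponectin (Adipoq) by -0.14. Npr3 was lowest at -0.71 ± 0.56 and Pparg nearest to 0 at -0.10 ± 0.20.

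**Figure D4:**
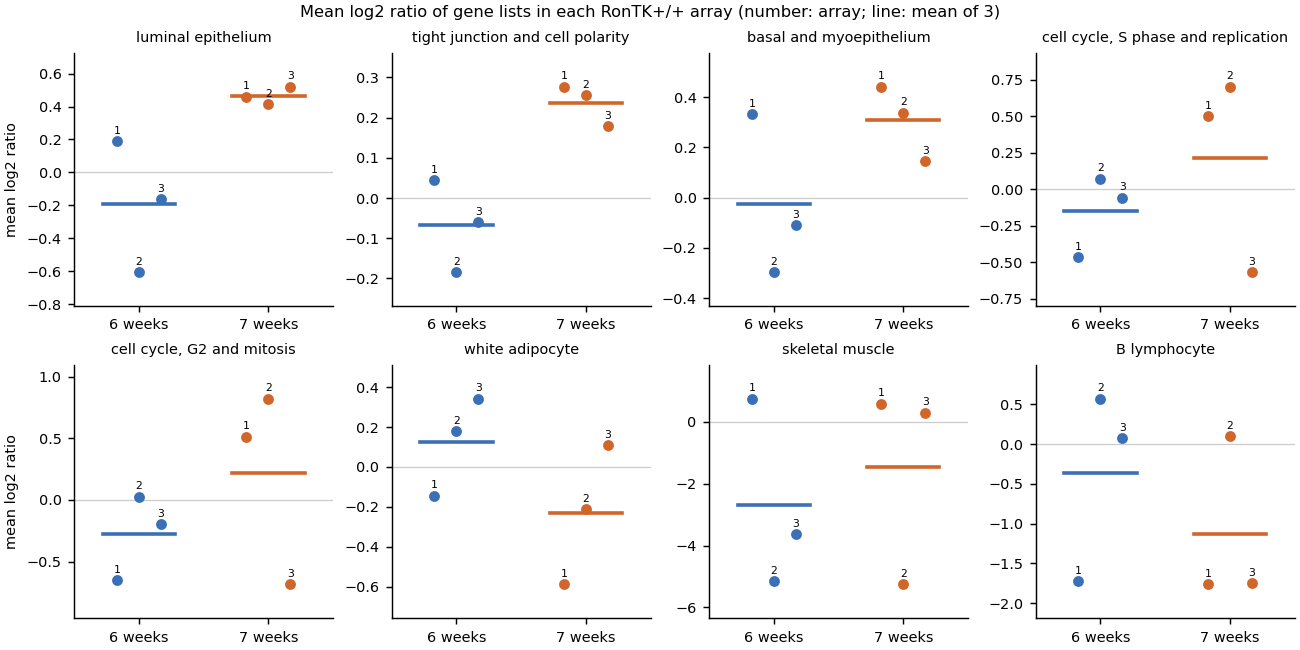
Mean log2 ratio (y axis, a scale per panel) of 8 gene lists in each RonTK+/+ array at 6 weeks (blue) and 7 weeks (orange), with array numbers as digits and lines at the mean of 3. Luminal and tight junction means lie apart between the ages, cell cycle means put array 3 at 7 weeks lowest, and muscle and B cell means differ within each age.

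The RonTK-/- arrays gave the same interval on other samples. There the luminal list mean was -0.13, -0.23 and 0.13 at 6 weeks and 0.52, 0.46 and 0.47 at 7 weeks, with 21 of 21 genes above 0 and a median of 0.58, against 55.9% of all genes above 0. The cell cycle lists had medians of -0.33 (mitosis) and -0.30 (S phase) there, against 0.50 and 0.30 in RonTK+/+. The RonTK-/- mitosis mean was -0.57, -0.49 and -0.09 at 6 weeks and -0.38, -0.72 and -1.01 at 7 weeks, with an overlap. The S phase mean there was -0.19, -0.15 and 0.05 against -0.42, -0.39 and -0.42. In RonTK+/+ both lists were high in arrays 1 and 2 at 7 weeks only. In RonTK-/- all 3 arrays at 6 weeks were low in muscle, at -5.35 to -3.52, and all 3 at 7 weeks high, at 0.15 to 0.53, so age and muscle cannot be told apart in that genotype. Tested gene by gene, the RonTK+/+ change minus the RonTK-/- change passed for 0 of 18193 genes (0%), with 1418 at an unadjusted p under 0.05 (7.79%) and a smallest adjusted p of 0.624. Without array 3 of RonTK+/+ at 7 weeks 231 genes passed.

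The 5 genes with the smallest p for that contrast did not pass. Smad6, an inhibitor of BMP signalling, had steps of -0.14 in RonTK+/+ and 0.92 in RonTK-/- (difference -1.06), and Zfp449 of 0.05 and 0.71 (-0.66). Gprasp2, a GPCR-sorting protein, stood at 0, -0.01 and -0.08 at 6 weeks and 0.90, 0.84 and 0.47 at 7 weeks in RonTK+/+, a step of 0.76 against -0.10 in RonTK-/-. Bhlha9 had steps of -0.31 and 0.22, and Mis12, a kinetochore gene, 0.34 and -0.39. Tnfsf11 had steps of 1.84 and -1.23, Mki67 of 0.81 and -0.80, and Lalba of -1.39 and 1.56, and their contrasts had an adjusted p of 0.624 each.

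**Figure D5:**
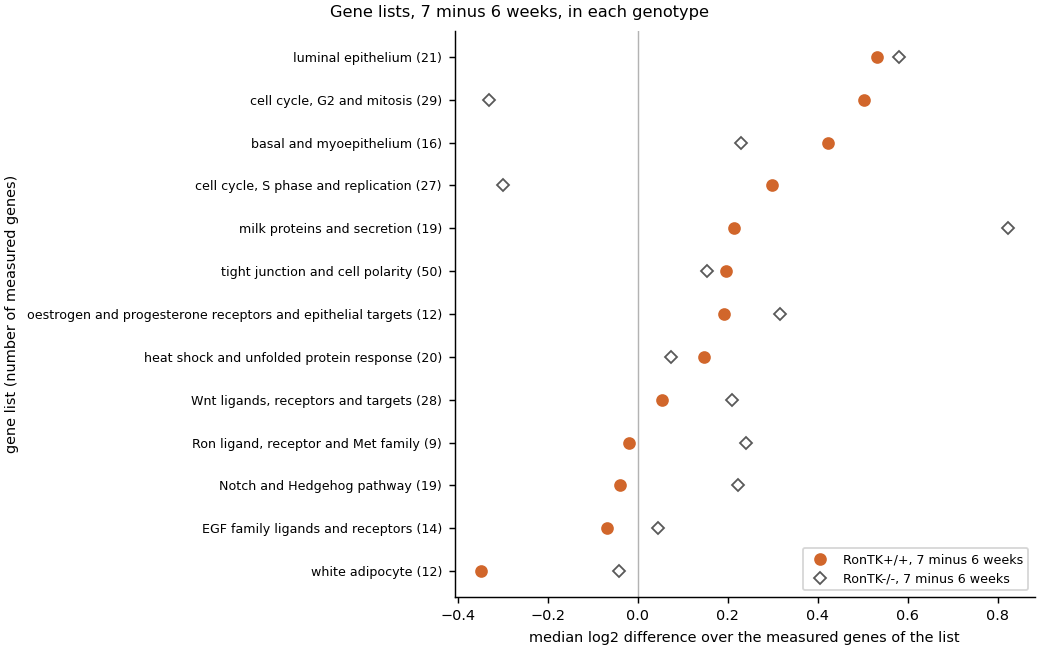
Median log2 difference, 7 minus 6 weeks (x axis), over the measured genes of 13 lists (y axis, with gene number) in RonTK+/+ (orange circles) and RonTK-/- (open diamonds). The 2 symbols lie close for the luminal list, at 0.53 and 0.58, and on opposite sides of 0 for both cell cycle lists.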

How the data were processed

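Affymetrix Mouse Genome 430 2.0 arrays, 18 in 6 groups of 3 by genotype and age, gave the values, and groups were taken from the titles. Per the labels' protocols, 1 round of amplification and biotin labelling preceded hybridisation. The authors deposited linear ratios, a unit found from the values: each array has a median ratio of 1, the lowest ratio is 0.01 (103 of 811818 values) and the highest 122.6. Among the sources used here, none gives the software or how probe sets were summarised and normalized. The ratios hold neither absolute levels nor signal over background, so dim probe sets were not filtered and levels of different genes were not compared.

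The log2 ratio, taken without a pseudocount, was tested. Of 45101 probe sets, 64 were controls, 34945 had 1 symbol, 932 several and 9160 none, and 34741 of those with 1 symbol matched a RefSeq table (GRCm38.p6). A gene is the mean of its probe sets with 1 symbol. A model with a mean per group was fitted to all 18 arrays with limma 3.58.1 in R 4.3.3 (lmFit, then eBayes; degrees of freedom were 12 residual and 1.94 prior). Adjusted p-values are two-sided, by Benjamini-Hochberg over 18193 genes, and called under 0.05; "ages apart" means that no array of one age reached the range of the other. With 3 arrays against 3 an exact permutation test cannot go below 0.1, and the number of arrays limits the precision. On simulated data for this comparison over 18193 genes the same code found 64% of the genes set to a 1.5-fold change and 88% at a 2-fold change. It made 170 true calls and 13 false ones there. The simulated noise was independent between genes, whereas in the real arrays many genes varied together with tissue make-up. These shares therefore do not measure what the test could find in the real arrays.

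The members, the 46 gene lists and the 1 added list were chosen with earlier results of these data known. Some lists share members, such as Spint2, Cldn3, Rspo1, Wnt4 and Elf5, so their counts are not separate. Named genes are a fixed set, called genes, the 10 per direction with the smallest p and ages apart where under 5 passed, the 5 with the smallest p for the genotype contrast, and from each described list up to 6 with the smallest p plus the highest and lowest. The rule leaves out predicted and RIKEN genes. Promoter windows are from RefSeq (GRCm38.p6) and were matched by symbol, and figures were drawn with matplotlib 3.10.9. Alternatives covered normalization, array weights, the arrays in the fit, the replicate number as a block, marker means as covariates, single probe sets, thresholds and leaving out each array.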

Additional observations from a re-analysis of the deposited data

How the results depend on the processing

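Called genes were few and their number moved with most choices, and 96 of 112 named genes kept their sign. Against 2 genes called in the comparison of 7 with 6 weeks, quantile normalization gave 0 (1675 at an unadjusted p under 0.05), only the 9 RonTK+/+ arrays 0 (1270), only the 6 arrays compared 0 (1029), the luminal epithelium mean as a covariate 0 (2460), and a fold of at least 2 gave 0. The skeletal muscle mean as a covariate gave 55, the muscle and B lymphocyte means together 11, leaving out genes with a value at the lowest ratio 13, and an adjusted p under 0.1 gave 32. Array weights, by the gene-by-gene method because the default did not converge, gave 1146, of which 798 were higher. Leaving out each of the 6 arrays in turn gave 0 to 512. Array 3 at 7 weeks gave 512, array 1 at 6 weeks 41, and both left out together, an alternative chosen after seeing the data, 330 (314 higher). The cause of these shifts was not tested. Zfp692 kept a difference of 0.42 to 0.50 and Sik1 of 0.54 to 0.67 over 18 alternatives, but lost the threshold in 8 and 10 of them. The contrast between genotypes, 0 genes (1418 at an unadjusted p under 0.05), gave 0 to 231 when arrays were left out in turn, with 231 without RonTK+/+ array 3 at 7 weeks, 6 with array weights, 1 with the muscle and B lymphocyte means together, and 0 in the other alternatives.

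With the replicate number as a replicate block 0 genes passed (1611 at an unadjusted p under 0.05, smallest adjusted p 0.0614) and 0 passed for the contrast between genotypes. The numbers share no stated animal or batch, and arrays of the same number correlated in their deviations at 0.73, 0.87 and -0.42, so they were not taken as pairs.

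Of 112 named genes 96 kept their direction in every alternative run and 16 did not, each with a difference that had not passed the test. Pgr came to -0.26 with quantile normalization, -0.27 with array weights, -0.0705 with the muscle mean, -0.082 with the B lymphocyte mean, -0.87 with the luminal mean and -0.18 without both arrays named above. Egf came to -0.021 with the muscle mean, -0.40 with the B lymphocyte mean, -0.14 with both and -1.72 with the luminal mean, and Zfp449 to -0.030 with the B lymphocyte mean, -0.028 with both and -0.12 with the luminal mean. The luminal mean also turned Csn2 (-1.57), Elf3 (-0.062), Cldn11 (0.20), Lef1 (0.83), Hspa1a (-0.35), Pparg (0.051) and Aurka (-0.14). For Hsp90aa1 the probe set with the smallest p gave -0.22. Leaving out arrays in turn gave -0.25 to 0.53 for Pgr, -0.84 to 0.17 for Tmprss2, -0.12 to 0.22 for Ccne1, -0.044 to 0.12 for Zfp449, -0.67 to 0.059 for Greb1, -0.40 to 0.0028 for Mst1r, -0.11 to 0.022 for Mst1 and -0.28 to 0.12 for Pparg. The luminal list's own median was 0.07 with its mean as a covariate, which that covariate's construction brings about.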

Other observations

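Lists for other cell types and processes showed smaller or array-bound differences between 6 and 7 weeks in RonTK+/+. Fibroblast genes, 8 of 16 above 0 with a median of 0.01, and genes of collagens and basement membrane, 12 of 22 above 0 with a median of 0.01, did not lean to a side. Endothelial genes had a median of -0.10 and macrophage genes of -0.26, with 14 of 17 below 0. Genes of the cytosolic ribosome had a median of 0.11 with 11 of 12 above 0, and those of the respiratory chain and TCA cycle a median of -0.05. Brown adipocyte genes had list means of 0.46, -0.66 and -0.09 at 6 weeks and 0.04, -1.44 and 0.67 at 7 weeks, lowest in array 2 at both ages. No member of these lists passed the test.

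The lipogenesis list, with 18 of 23 genes below 0 and a median of -0.13, held Fads2 as its highest member at 0.70. In that list the mean of array 3 at 7 weeks was 0.75, above arrays 1 (-0.01) and 2 (-0.13) and above the 6-week arrays (0.42, 0.25 and 0.24). Sterol synthesis genes showed the same order, with 0.72 in array 3 at 7 weeks against 0.04 and 0.01 in arrays 1 and 2, and 0.08 to 0.23 at 6 weeks. Array 3 at 7 weeks was also the array with the lowest mitosis mean of the 6, at -0.68.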
